A study of Mus musculus with 2 samples.

Results

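The gene set described here holds 46 genes that build, bundle, cap, cut and pull on actin filaments, with emphasis on the microvilli of epithelial cells. Its members were taken from a list of names and matched to the array through the gene symbol of each probe set, updated by gene ID. Of the 46, 43 had a probe set paired with that gene alone. Arpc1b was covered only by 2 probe sets that also name another gene, and Myh10 and Arpc3 matched no probe set in the annotation used. These 3 genes therefore have no ratio here and enter only the promoter counts. Vil1 and Espn were under the floor on both arrays and received no ratio, which left 41 members with a ratio, out of 12393 genes in all and 8304 genes with a ratio. All 41 were over the floor on both arrays.

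The samples are uterine epithelial cells of mice in the morning of day 4 of pregnancy, 1 array from control mice (titled as Stat3 flox) and 1 from Stat3 knockout mice. The design text gives n = 3 for each sample and says that RNA was pooled before hybridisation, so each array reads 1 pool. Cells were freed from the tissue with trypsin. The labels name no Cre driver, strain or age, and their extraction text speaks of human endometrial stromal cells, so the cell type was checked below. The title of the knockout sample also names control mice, and its group rests on the genotype label. Stat3 read 582 on the control array against 186 on the knockout array in its brightest probe set (32.0% of control), and 430.0 against 160.0 in the next (37.2%), so the signals run the way the labels do. Where these probe sets lie relative to the deletion was not determined. With 1 array per group no difference has a replicate check, no p-value exists, and every difference below describes these 2 arrays. Values are MAS5 signals, the background-corrected brightness of a probe set on a linear scale; signals below a floor of 14.0, the 40th percentile of all signals, were raised to it, and the ratio is knockout over control.

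Actin filaments fill each microvillus as a parallel bundle held by plastin, villin, espin and Eps8, anchored sideways to the membrane by ezrin, radixin and moesin and by class I myosins, and rooted in a terminal web of non-muscle myosin II, tropomyosin and spectrin. Filaments turn over by addition of profilin-bound monomers at one end and by cofilin-driven cutting, while thymosins hold monomers in reserve. The uterine luminal epithelium carries such microvilli before implantation and flattens its apical surface as it becomes receptive to the embryo. Many actin cytoskeleton genes are textbook targets of serum response factor (SRF), which binds a DNA motif called the CArG box and whose MRTF cofactors sense free actin monomers.

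Promoter sequences were set beside the signals because members with shared regulatory motifs can be read against their ratios. RefSeq promoters (build GRCm38.p6, 250 bases before to 50 after an annotated start) were at hand for 41 of the 46 members, with 55 starts in all. None was at hand for Actb, Cttn, Eps8, Myo1d and Myo5b. These 41 genes are not the 41 with a ratio, since they include Vil1, Espn, Arpc1b, Arpc3 and Myh10. The CArG box, searched on both strands, was found in 5 of the 41 genes with a promoter (12.2%). It was in 1.81% of all 27025 genes with a promoter and in 1.69% of the 6788 genes that had both a promoter and a ratio. The genes were Lima1, Myl6, Actg1, Myo1e and Vil1. The STAT palindrome TTCNNNGAA was found in 0 of the 41, against 9.55% of all genes with a promoter and 7.87% of those with a ratio. These letters are simply not in these windows. The GC box GGGCGG, searched on both strands, was in 35 of the 41 (85.4%). It was in 38.2% of all genes with a promoter and 70.9% of those with a ratio. A match is a run of letters, not a shown binding site.

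The promoters of Lima1 and Myl6 are shown in full because the probe sets used for both genes were near 2-fold higher in the knockout, and the CArG box, in capitals, begins 47 and 50 bases before the start. The Lima1 promoter is chr15:99820100-99820399, minus strand, and the Myl6 promoter is chr10:128492960-128493259, minus strand, 1 of 2 annotated starts of the gene, the other of which held no CArG box.
Lima1: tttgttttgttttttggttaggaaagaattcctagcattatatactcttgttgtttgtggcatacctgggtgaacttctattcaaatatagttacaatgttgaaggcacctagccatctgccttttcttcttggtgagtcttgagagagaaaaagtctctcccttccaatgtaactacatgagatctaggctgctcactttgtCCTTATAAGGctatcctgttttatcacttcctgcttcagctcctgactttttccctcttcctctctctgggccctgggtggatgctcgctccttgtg
Myl6: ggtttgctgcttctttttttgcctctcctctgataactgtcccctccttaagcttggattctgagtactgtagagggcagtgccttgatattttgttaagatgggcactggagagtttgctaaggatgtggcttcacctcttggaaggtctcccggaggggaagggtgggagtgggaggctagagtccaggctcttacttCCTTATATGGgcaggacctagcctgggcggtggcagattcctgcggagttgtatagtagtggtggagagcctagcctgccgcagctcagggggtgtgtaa
For the other 3 genes the box is given with 10 bases on each side. In Actg1 (promoter chr11:120348446-120348745, minus strand) it begins 90 bases before the start, in Myo1e (chr9:70207100-70207399, plus strand) 32 bases and in Vil1 (chr1:74409134-74409433, plus strand) 73 bases.
Actg1: ggaaagatcgCCATATATGGacatgttctg
Myo1e: gctgaattctCCATTTATGGacagattgcc
Vil1: ccctatcttcCCTTATATGGtgaaggaagt
The 5 genes with the box did not share a direction. Lima1 and Myl6 had log2 ratios of 1.03 and 0.998, Actg1 had 0.08, Myo1e had -0.48 from dim signals, and Vil1 was under the floor. The Myl6 value came from 1 probe set (73.2 and 146). Brighter probe sets that name Myl6 together with other genes were nearly level (0.11 and 0.19).

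Most of the actin machinery had similar signals on both arrays, and a few members stood out in either direction. Pls3 and Lima1 passed the 2-fold limit upward in the knockout, and Eps8 and Msn passed it downward. That is 2 of 41 members each way, where 7.37% of all genes with a ratio passed it upward and 9.92% downward. At 1.5-fold the counts were 5 higher and 5 lower, against 19.4% and 18.6% of all genes. These shares are near or below the background. Among the members the log2 ratio had a median of -0.07 and quartiles of -0.34 and 0.13, while all genes with a ratio had a median of 0.05 and quartiles of -0.40 and 0.46. Within 1.5-fold lay 31 of the 41 members (75.6%), against 62.1% of all genes. The comparison was repeated among bright genes, since 35 of the 41 members had signals of 100 or more on both arrays. Among the 4259 genes of that brightness, 70.5% lay within 1.5-fold, 16.2% were past 1.5-fold upward and 13.3% downward, and 5.73% and 4.77% were past 2-fold. Of the 35 members, 27 lay within 1.5-fold, 4 were past it upward and 4 downward, and 2 and 1 were past 2-fold.

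**Figure D1:**
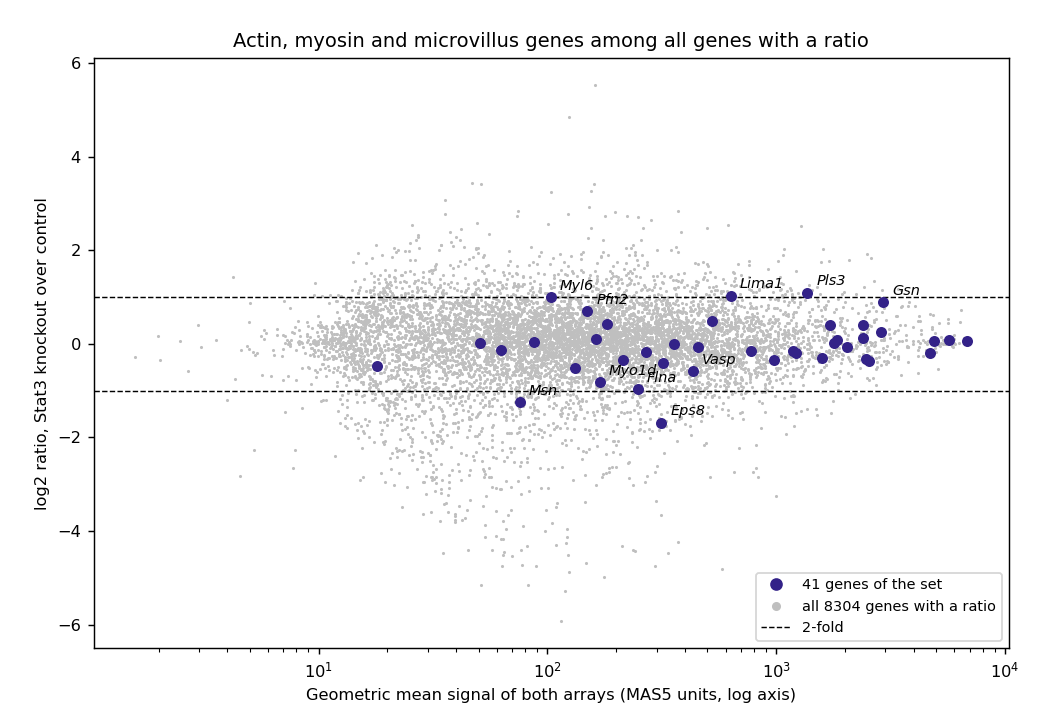
Each point is a gene, with the geometric mean of both signals on a log axis (MAS5 units) and the log2 ratio of knockout over control; the 41 members are dark and the 8304 genes with a ratio grey, and genes under the floor on 1 array are drawn at their bound. Pls3 and Lima1 lie above the upper 2-fold line, and Eps8 and Msn below the lower one. The brightest members, Tmsb4x, Actg1, Actb and Tmsb10, sit close to 0, while Gsn, also bright, lies at 0.89.

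The only error that can be measured here is the disagreement between probe sets of the same gene. Log2 ratios of probe sets over the floor on both arrays had an SD of 0.31 within genes (2853 genes with more than 1 such probe set), and of 0.27 within the 20 members that had several. This covers neither animals nor arrays. Of the 41 members, 33 kept the sign of their ratio under every alternative setting that gave them a value. The other 8, Cfl2, Cttn, Myh9, Myo6, Myo10, Tmsb4x, Tpm2 and Tpm3, had ratios near 0 that changed sign or, for Tmsb4x, came to exactly 0 in at least 1 setting, and no direction is given for them. A kept sign is a weak check, because most floors leave bright signals unchanged and genes with 1 probe set have no other to choose. Myo1c and Tmsb10 kept their negative sign although each had a probe set with a positive log2 ratio (0.52 and 0.50).

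**Figure D2:**
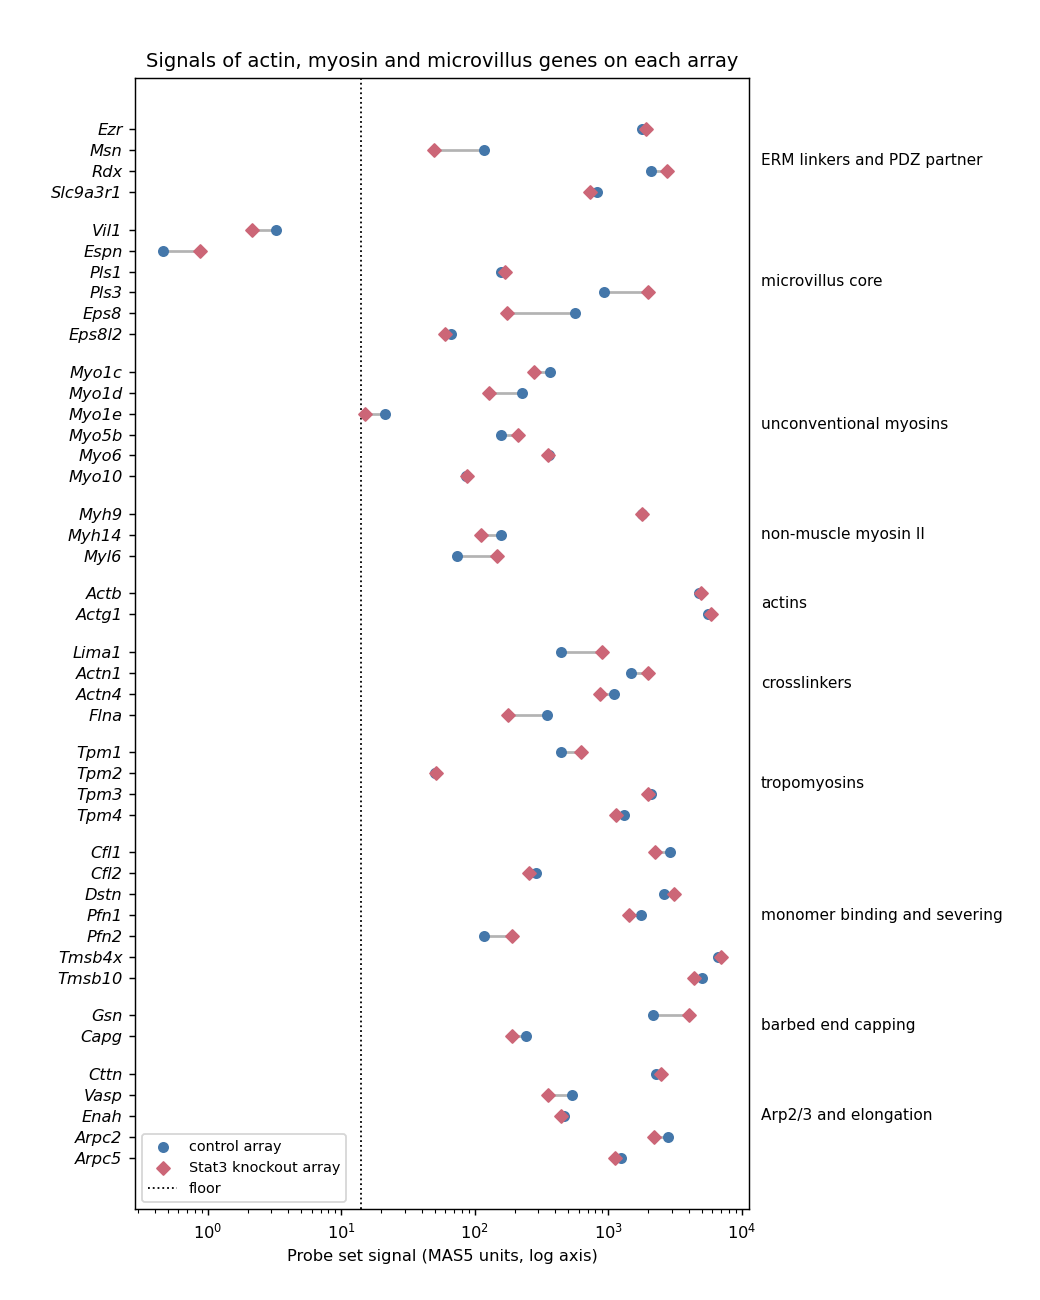
Signals of the 43 members with a probe set of their own, on a log axis (MAS5 units), with a circle for the control array and a diamond for the knockout array, grouped by role; the dotted line is the floor of 14.0. Most pairs of symbols overlap or touch, and Vil1 and Espn lie under the floor. Eps8, Msn and Flna have the diamond clearly to the left, and Pls3, Lima1, Myl6 and Gsn to the right.

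The labelled cell type was checked against marker genes, since actin genes are shared with muscle, stroma and blood cells. The 6 epithelial markers were bright and within 2-fold, and their signals summed to 18913 on the control array and 20203 on the knockout array. Of 9 smooth muscle markers, Actg2, Myh11, Cnn1, Des and Lmod1 were under the floor on both arrays; the other 4 were lower in the knockout, with Smtn at least 3.06-fold lower and Acta2 at 95.2 and 71.6, and the summed signal was 216 and 144. Of 9 stromal markers, 7 were higher and 1 lower, none by 2-fold, with Hand2 under the floor on both arrays; the sum was 2581 and 3565, with Dcn at 1235 and 1753. Of 12 leukocyte markers, 6 were higher and 5 lower (Cd79b at least 3.17-fold) and Cd3e was under the floor, with a sum of 867 and 885. The endothelial markers Pecam1, Kdr, Tek and Emcn were under the floor, and the sum of all 7 was 89.6 and 81.3. Both mesothelial markers on the array were over 2-fold higher, Upk3b at 145 and 372 and Msln at 34.7 and 71.2. The erythrocyte markers Hba-a1 and Alas2 were under the floor. In a pool of cells, fewer cells of a type and less RNA per cell cannot be told apart.

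The proteins that tie actin to the plasma membrane differed among themselves. Msn, which encodes moesin, gave 117 on the control array and 49.2 on the knockout array, a 2.38-fold lower signal (log2 ratio -1.25). Its second probe set was under the floor on both arrays, so the value rests on 1 probe set. Ezr, which encodes ezrin, the main member of this family in microvilli of many epithelia, had signals of 1797 and 1903 (log2 ratio 0.08). Rdx, which encodes radixin, had 2084 and 2763, and its 3 probe sets had log2 ratios of 0.41 to 0.56. Slc9a3r1, which encodes the PDZ scaffold NHERF1 that ezrin binds, had 817 and 730 (3 probe sets, -0.43 to -0.16). The knockout array was thus low for moesin alone of the 3 related genes, and slightly high for radixin. Moesin is also made by leukocytes, endothelium and stroma. The summed markers of those cells were 867 and 885, 89.6 and 81.3, and 2581 and 3565. Among the leukocyte markers, 6 were higher and 5 lower. The part of those cells in the Msn value was not tested.

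The genes of the microvillus core held members past 2-fold in both directions. Eps8, which encodes a protein that caps and bundles actin at microvillus tips, gave 563 on the control array and 175 on the knockout array, 3.22-fold lower. Its other probe sets gave 456 and 160.4, and 123 and 41.7, so all 3 were past 2-fold in the same direction, with log2 ratios of -1.69 to -1.51. Eps8l2, a relative of Eps8, had 66.0 and 60.1 (log2 ratio -0.14). Pls3, which encodes plastin 3, a bundling protein, had 934 and 1995, 2.14-fold higher from its single probe set. Pls1, which encodes plastin 1, the bundler known from the intestinal brush border, had 157 and 168 (log2 ratio 0.10). Vil1, which encodes villin, had 3.24 and 2.15, and Espn, which encodes espin, was likewise under the floor on both arrays. Other genes known from the intestinal brush border were also under it, namely Cdhr5, Ush1c, Myo7b, Pdzk1 and Eps8l3. So was Prom2, a gene of plasma membrane protrusions. Prom1 and Eps8l1 were over it on both arrays, at 1357 and 1202, and 93.4 and 112. Both were named after their values were seen. Of the core proteins listed, the array therefore gave ratios for plastins and Eps8 proteins and not for villin or espin.

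Crosslinkers, which join filaments into nets or bundles, also split. Lima1, which encodes EPLIN, a protein that stabilises filaments and links them to adherens junctions, had 443 and 905, 2.04-fold higher; its other probe sets had 304 and 548, and 81.7 and 211, log2 ratios of 0.85 and 1.37. Flna, which encodes filamin A, had 349 and 177, a log2 ratio of -0.98, just inside the 2-fold limit. The alpha-actinin genes differed in direction: Actn1 had 1490 and 1974 (3 probe sets, log2 ratios of 0.37 to 0.48) and Actn4 had 1097 and 867 (-0.34). Muscle and stroma also express Flna, and their summed markers went opposite ways. Smooth muscle markers were lower in the knockout (216 and 144) and stromal ones higher (2581 and 3565), as were mesothelial ones (179 and 444). The part of these cells in the Flna and Lima1 values was not tested.

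Capping and severing proteins of the gelsolin family were also apart. Gsn, which encodes gelsolin, had 2160 and 3994 in its brightest probe set (1.85-fold higher, log2 ratio 0.89), and 1258 and 2761, 782 and 1658, and 1001 and 1897 in the other 3 measured ones. All 4 were higher in the knockout, 2 of them past 2-fold, and the mean log2 ratio of the 4 was 1.01. Gelsolin is also abundant in stroma, whose summed markers were 2581 and 3565. The mesothelial markers summed to 179 and 444. The part of these cells in the Gsn values was not tested. Capg, which encodes a capping protein of the same family that is well known from macrophages, had 241 and 190 (log2 ratio -0.34). The leukocyte markers summed to 867 and 885, but 6 of them were higher and 5 lower, so the level sum mixes both directions.

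Unconventional myosins, which carry cargo along actin or tether it to membranes, stayed within 2-fold. Myo1d, a class I membrane-linking myosin gene, had 225 and 127, 1.76-fold lower, from 1 probe set. Myo1c, of the same class, had 368 and 276 in its brightest probe set (log2 ratio -0.42), but its 3 dimmer ones ranged from -0.28 to 0.52. Myo1e had 21.2 and 15.1, close to the floor. Myo5b, whose motor drives apical recycling vesicles in enterocytes, had 157 and 210.1 (log2 ratio 0.42). Myo6, the motor that moves toward the base of microvilli, had 358 and 357, and Myo10, which moves to the tips of filopodia, had 86.3 and 88.2, so for both the arrays gave almost the same signal.

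Non-muscle myosin II is the motor of the terminal web and of junctional contraction. Myh9, the heavy chain IIA gene, had 1792 and 1799 in its brightest probe set, and its 4 probe sets ranged from 0.01 to 0.53. Myh14, the heavy chain IIC gene, had 158 and 111 (log2 ratio -0.51). Myl6, the essential light chain gene, had 73.2 and 146 in its only probe set that names this gene alone, a log2 ratio of 0.998, just inside the limit; under median centring or quantile normalization of the arrays it was 1.06 or 1.01 and past it. Its 2 further probe sets each name 3 genes, so they could not be assigned to Myl6; they were nearly level, at 2611 and 2813, and 3378 and 3842 (log2 ratios of 0.11 and 0.19). The Myl6 value therefore rests on 1 probe set that the shared ones do not follow.

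The genes for actin itself had nearly equal signals. Actb, which encodes beta-actin, had 4758 and 4989, and Actg1, which encodes gamma-actin, 5549 and 5882 (log2 ratios of 0.07 and 0.08). The 3 Affymetrix control probe sets of Actb had log2 ratios of 0.01 at the 3' end, -0.08 in the middle and -0.04 at the 5' end. The ratio of 3' to 5' signal of Actb, which rises with RNA degradation, read 1.504 on the control array and 1.561 on the knockout array. A further Actb probe set stood apart with 1811 and 3170 (log2 ratio 0.81).

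Tropomyosins, the rods that line filaments and select which myosins may bind, stayed within 1.5-fold in their brightest probe sets. Tpm1 had 441 and 620, and its second probe set had 299 and 448 (log2 ratios of 0.49 and 0.58). Tpm2 had 50.5 and 51.4, Tpm3 2082 and 1975, and Tpm4 1302 and 1141. The other Tpm3 probe sets over the floor on both arrays gave 0.21 and 0.65; this gene makes many isoforms, and which isoform each probe set reads was not determined.

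Of the 7 genes for proteins that bind monomers or cut filaments, Pfn2 was the 1 past 1.5-fold. Pfn2, a profilin gene, had 117 and 191, and its 3 probe sets gave log2 ratios of 0.70 to 0.77. Pfn1, the widespread profilin gene, had 1760 and 1430 (log2 ratio -0.30). The filament-cutting genes Cfl1, Cfl2 and Dstn had 2904 and 2235, 287 and 253, and 2632 and 3120. The thymosin genes Tmsb4x and Tmsb10 had 6678 and 6977, and 5043 and 4388; the other 3 measured Tmsb10 probe sets gave -0.82, -0.66 and 0.50.

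Genes of branching and elongation were slightly lower or level. Vasp, which protects growing filament ends, had 532 and 354 (log2 ratio -0.59) from 1 probe set, while its relative Enah had 468 and 446 (log2 ratio -0.07). The Arp2/3 subunit genes Arpc2 and Arpc5 had 2779 and 2206, and 1244 and 1119 (log2 ratios of -0.33 and -0.15). The probe sets that name Arpc1b together with another gene had 1695 and 1076, and 26.7 and 20.7 (log2 ratios of -0.66 and -0.37). They could not be assigned to Arpc1b. Cttn, which encodes the Arp2/3 activator cortactin, had 2276 and 2497. None of the 5 measured genes was past 2-fold.

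**Figure D3:**
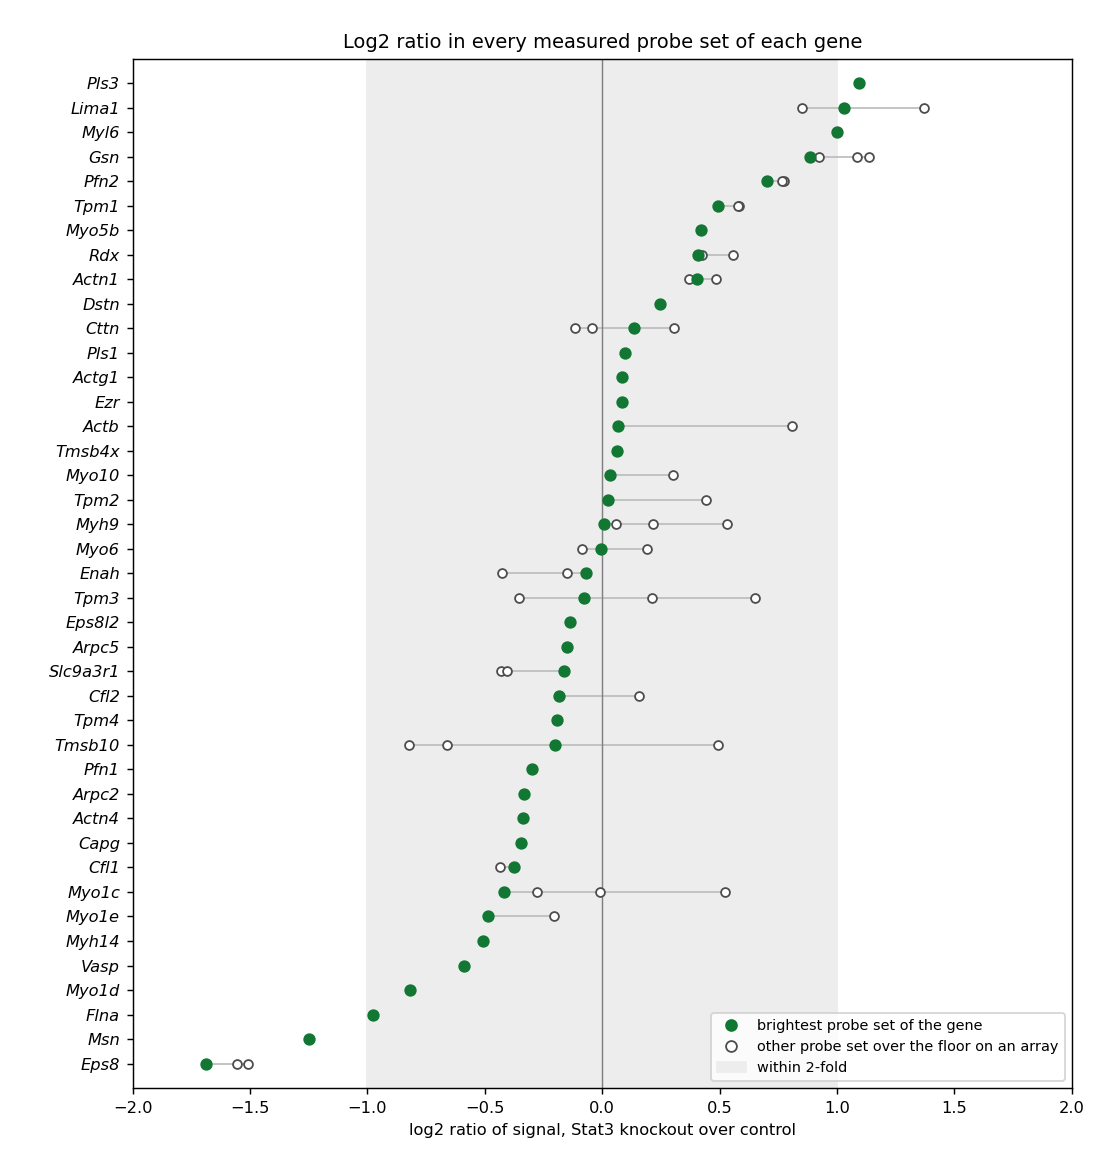
Log2 ratio of knockout over control (horizontal axis) for every probe set of each member that is over the floor on at least 1 array, ordered by the brightest probe set (filled); open circles are the other probe sets and the shaded band is within 2-fold. The 3 Eps8 probe sets lie together between -1.69 and -1.51 and the 4 Gsn ones between 0.89 and 1.13, while Actb, Tpm3, Tmsb10 and Myo1c have probe sets that lie far apart.

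Because the set holds several families of related proteins, their members were compared in pairs within 13 families, 24 pairs in all. The SD between probe sets of 1 gene gives an SD of 0.44 for the difference of 2 log2 ratios, and 6 of the 24 pairs differed by more than 2 of these SDs (0.89). Msn was lower relative to Rdx by a log2 difference of -1.66 (-1.75 to -1.27 under the other settings), and Ezr was higher relative to Msn by 1.33 (0.95 to 1.43). Eps8 relative to Eps8l2 gave -1.55 (-1.65 to -1.45), and Pls1 relative to Pls3 gave -0.998 (-1.05 to -0.98). Pfn1 relative to Pfn2 gave -1.003 (-1.07 to -0.94), and Gsn relative to Capg gave 1.23 (1.18 to 1.35). In 4 of these 6 pairs, namely Msn with Rdx, Ezr with Msn, Pfn1 with Pfn2 and Gsn with Capg, the members lay on opposite sides of 0. Over all 24 pairs, 13 had members on opposite sides of 0. The pair Actn1 and Actn4 differed by 0.75 and Tpm1 and Tpm4 by 0.68, below that limit. This limit covers probe sets only, so it says nothing of how the pairs vary between animals. How often unrelated genes differ by more than this limit was not computed, so the 6 pairs have no background to be read against. For scale, all genes with a ratio had quartiles of -0.40 and 0.46.

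**Figure D4:**
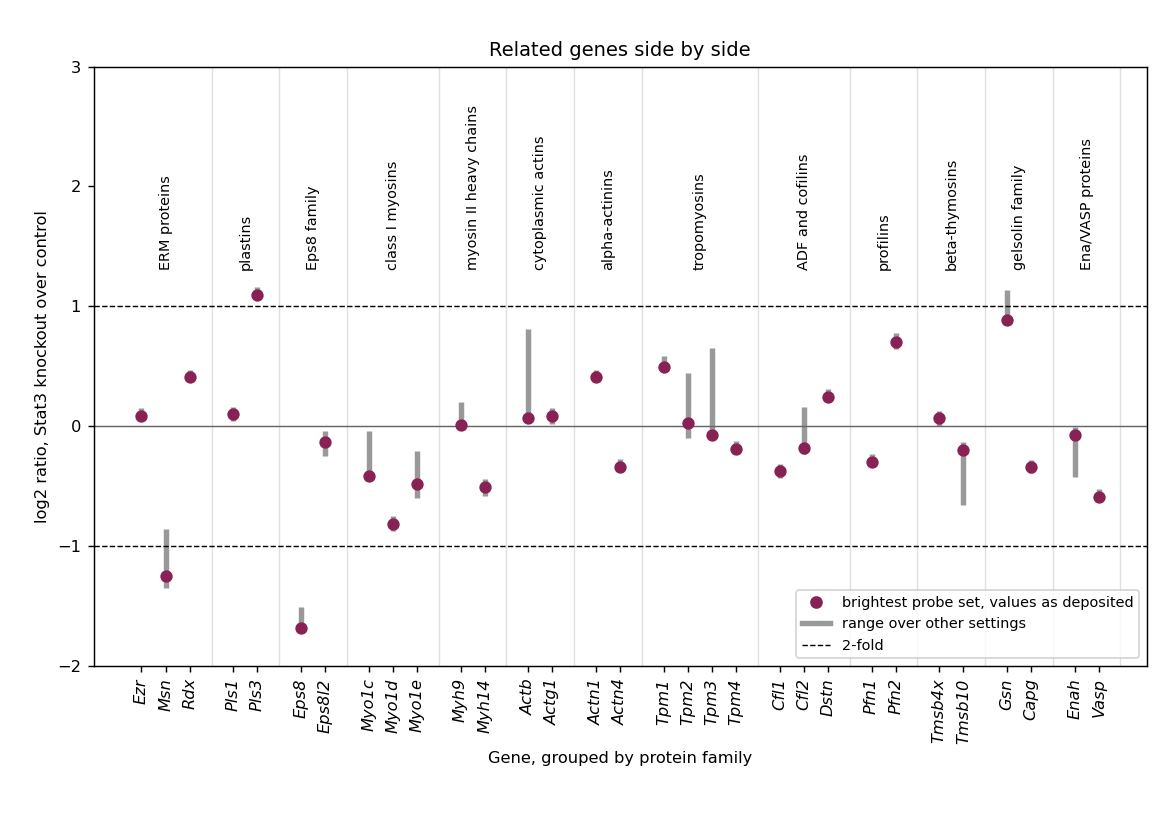
Log2 ratio of knockout over control for related genes side by side, 1 column per gene and grouped by family; points are the brightest probe set with the values as deposited, grey bars the range over the other settings, dashed lines 2-fold. Moesin lies far below ezrin and radixin, Eps8 below Eps8l2, Pls3 above Pls1, Pfn2 above Pfn1 and Gsn above Capg. The bars of Actb, Tpm2, Tpm3 and Tmsb10 are among the longest.

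Other actin genes outside the set also had higher and lower ratios, but the lists differed in spread. Within 1.5-fold lay 31 of the 41 members (75.6%) and 62.1% of all genes. The count was 13 of 15 for nucleators and elongators, 8 of 10 for myosins and light chains, and 9 of 10 for focal adhesion. For capping, severing and monomer-binding proteins it was 8 of 15, and for microvillus and crosslinking proteins 6 of 14. The SRF list had 4 of 12. None of 15 measured genes for other nucleators and elongators passed 2-fold in its brightest probe set, and their median log2 ratio was -0.06. Actr3, the Arp3 subunit gene, had 1797 and 1598, and Nckap1, a WAVE complex gene, 1267 and 1219; other probe sets passed the limit for Actr3 (log2 ratio -1.05), Evl (-1.26, against -0.95 in its brightest) and Diaph1 (1.09, against 0.61 in its brightest).

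Of 15 measured genes for other capping, severing and monomer-binding proteins, 3 passed 2-fold in the brightest probe set, all downward. Another probe set of Add3 passed 2-fold upward (log2 ratio 1.35, against 0.83 in its brightest). Of all genes with a ratio, 7.37% passed it upward and 9.92% downward, and no list count was tested against these shares. Tmod1, which caps pointed ends, had 149 and 43.1 (3.45-fold lower), Avil, which encodes the villin relative advillin, 67.0 and 28.5 (2.35-fold lower), and Coro1c, a coronin gene, 133 and 59.4 (2.24-fold lower; another probe set -0.65). The capping protein genes Capzb and Capza1 had 1327 and 1034, and 1211 and 1084.

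Of 14 measured genes for other microvillus and crosslinking proteins, 3 passed 2-fold upward and 2 downward, against 7.37% and 9.92% of all genes. Pdlim7, which encodes a PDZ and LIM protein of actin bundles, read 299 on the control array and was below the floor on the knockout array, at least 21.3-fold lower; its second probe set was also past 2-fold (log2 ratio -2.29). Fscn1, which encodes the bundler fascin, had 104 and 38.4 (2.72-fold lower), but its other measured probe set had a log2 ratio of 0.26. Podxl, an apical sialomucin gene, had 118 and 319 (2.71-fold higher; other probe set 0.15), and Baiap2l1, which encodes a membrane-bending protein linked to Eps8 and actin, had 128 and 314 (2.45-fold higher; other probe set 1.23). Pdlim1 had 2144 and 3503 (other probe set 0.31), and Sptbn1, a spectrin gene, 1762 and 1872 (other probe sets 0.36 to 0.81).

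Of 10 measured genes for other myosins and light chains, 2 passed 2-fold, both downward: Myo18a at 158 and 38.5 (4.11-fold lower) and Myo5c at 46.6 and 23.2 (2.01-fold lower, and inside the limit under 3 of the other settings), while the regulatory light chain genes Myl12b and Myl12a had 2840 and 3073, and 1782 and 1999. Of 10 focal adhesion genes, 1 was past the limit, Zyx, which encodes zyxin, at 74.4 and 174 (2.34-fold higher); Pxn and Lasp1 had 755 and 899, and 623 and 538, although the other Lasp1 probe sets ranged from -1.14 to 0.73. Among 12 measured genes of the SRF list, 2 were higher and 2 lower: Egr1 (462 and 1239) and Ier2 (744 and 1521) against Tagln2 (661 and 222, 2.98-fold lower; other probe set -3.18) and Cnn2 (87.3 and 42.2). Cnn3 had 4214 and 5423 (log2 ratio 0.36, other probe sets 0.40 to 1.39), and Fos 1967 and 3147. Ccn2, a further textbook target, had 2092 and 1188 (log2 ratio -0.82), and Srf itself 283 and 182 (-0.64, other probe set 0.02). Ccn1 of the same list went the other way, with 265 and 437 (0.72, other probe set 0.94). Ccn2, Srf and Ccn1 were chosen after their values were seen. The list thus held members on both sides, around a median log2 ratio of 0.10. Each count in this paragraph stands beside 7.37% of all genes past 2-fold upward and 9.92% downward.

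In contrast to the actin set, cytokinesis genes were lower. Of 12 measured genes, 8 passed 2-fold, all downward, where 7.37% of all genes passed it upward and 9.92% downward. The list had a median log2 ratio of -3.40. Cep55 had 366 and 18.3 (log2 ratio -4.32), Prc1 393 and 24.5, Kif23 395 and 27.9, and Kif20a 206 and 17.3. Anln, the actin-binding scaffold of the contractile ring, chosen after its values were seen, had 578 and 162 (3.56-fold lower), while Septin7 and Septin2, filament genes with functions outside division, had 1226 and 788, and 529 and 506. Of 15 measured genes in a list of tubulins, kinesins of transport and microtubule-associated proteins, 1 passed 2-fold upward and 6 downward, around a median log2 ratio of 0.09. The lower ones included Stmn1 (1488 and 319), Tubb5 (2191 and 653), Tubb4b (1872 and 635, other probe sets -0.57 and 0.18) and Tubg1 (151 and 55.3). Kif5b had 759 and 807 (other probe sets -0.06 to 0.59), and Tubb2a 413 and 718 (other probe set -0.44). The 41 actin set members had 2 lower against these 6 of 15 and 8 of 12; the differences between the lists were not tested.

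**Figure D5:**
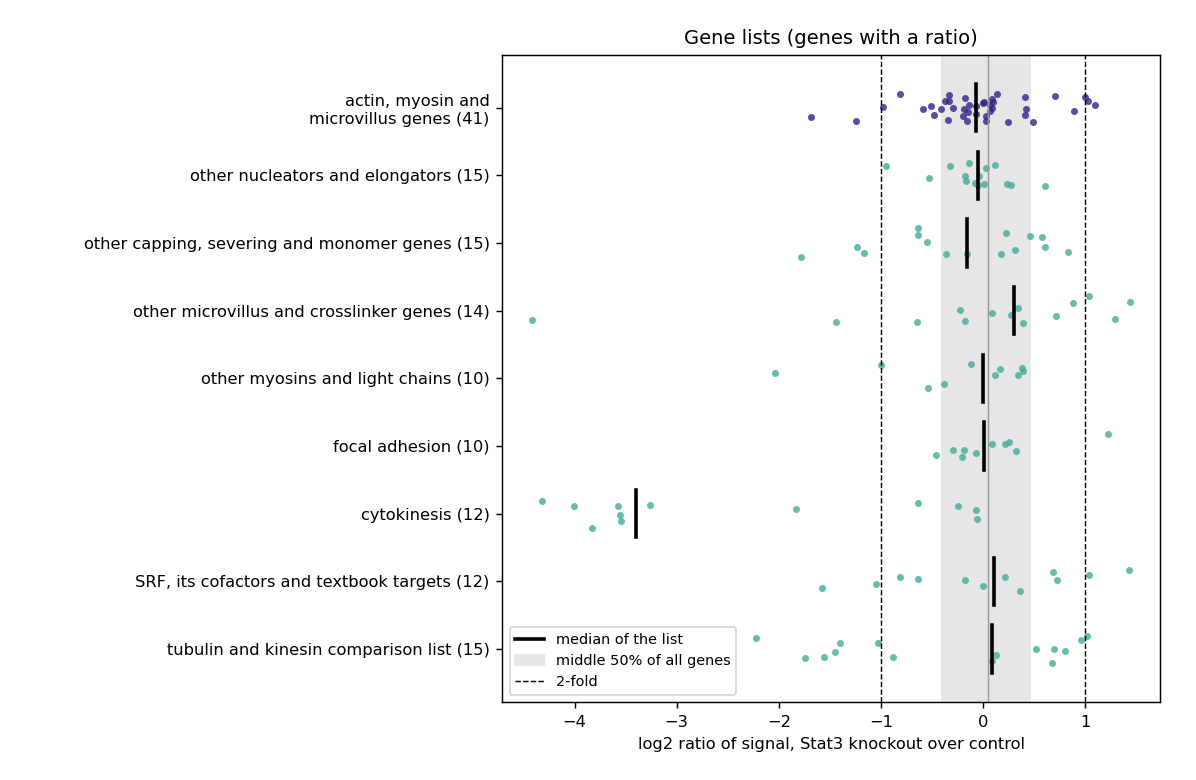
Log2 ratios of knockout over control of the 41 members (top row) and of the other lists described, 1 point per gene with bounds at their bound and the number of genes in brackets; black bars are list medians, the grey band the middle 50% of all genes, dashed lines 2-fold. The members cluster around their median of -0.07, and the cytokinesis list spreads to the left with a median of -3.40.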

How the data were processed

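RNA was read on the Affymetrix Mouse Genome 430A 2.0 array. For both arrays the authors deposited linear intensity values, made with MAS5 and Affymetrix Expression Console 1.1 per the submitters' processing notes. A trimmed mean (2% cut from either end) came to 150.1 for each array, which places both on 1 scale. Arrays give no counts, and the number of arrays limits the precision. Of 22626 probe sets that are not controls, 20380 had 1 gene, 691 several and 1555 none in the platform annotation; only the first kind was named, with symbols updated through a RefSeq table (GRCm38.p6).

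The brightest probe set by mean log2 signal stood for each gene. Signals under the floor (40th percentile, 14.0) were set to it, genes under it on both arrays got no ratio, and a fold with 1 side under it is given as "at least". No test was possible with 1 array per group. The ratio functions were tested on simulated data. Alternatives changed scaling (median, quantile, loess with span 0.3), floor (20th or 60th percentile, none, or added to both signals), probe set choice and fold limit; only members with both signals at 100 or more was an alternative added after seeing the data. Every member is named; both signals are given for those past 1.5-fold and the brightest others of each role, and from each other list up to 4 genes past 2-fold and up to 2 bright others. The result of 1 further list is not reported here. Members and lists were chosen with earlier results of these data known. Roles and families follow textbook knowledge. Python 3.11.15, pandas 2.3.3 and statsmodels 0.14.6 were used.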

Additional observations from a re-analysis of the deposited data

How the results depend on the processing

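No paired analysis was possible because each group is 1 array. The member counts of 2 higher and 2 lower became 5 and 5 at a 1.5-fold limit and 0 and 1 at 3-fold; with the floor at the 60th percentile 1 member was lower (Msn, then at -0.86, was inside), with the second brightest probe set, which 21 members had, 1 was higher and 1 lower, and among members with both signals at 100 or more 1 was lower. In the other settings the counts were 2 or 3 each way, the third being Myl6 under median centring and quantile normalization (1.06 and 1.01), Gsn with all probe sets averaged (1.01) or with probe sets shared between transcripts left out (1.13), and Flna under loess (-1.03). Lima1 was at 0.85 in its second brightest probe set. Eps8 and Pls3 were past 2-fold in every setting that gave them a value, Pls3 always from its single probe set.

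The median of the members stayed between -0.10 and 0.16. Without shared probe sets the group medians of actins, crosslinkers and capping proteins moved to 0.81, 0.41 and 1.13; with the second brightest probe set those of the microvillus core, actins, crosslinkers, tropomyosins and capping proteins moved to -1.51, 0.81, 0.61, 0.58 and 1.13, since other and fewer probe sets enter. Of the genes outside the set, Fscn1 turned to 0.26 without shared probe sets and in its second brightest one, and Tubb4b to 0.18 in its second brightest one. Calls outside the set that fell inside 2-fold without turning were Myo5c and Cnn2 under median centring (-0.94 and -0.99), Myo5c under quantile normalization (-0.98), Avil, Cnn2 and Fscn1 with the floor at the 60th percentile (-0.06, -0.44 and -0.70), and Avil, Cnn2 and Myo5c with the floor value added (-0.93, -0.85 and -0.70). With probe sets averaged, Coro1c, Fscn1, Podxl and Tubb4b did so (-0.91, -0.59, 0.79 and -0.65), as did Coro1c without shared probe sets and in its second brightest one (-0.65 in both) and Podxl in its second brightest one (0.15). The cytokinesis median ranged from -3.49 to -1.24, and that of tubulins and kinesins was -0.47 with the floor at the 60th percentile. The median of other capping, severing and monomer-binding genes moved from -0.16 to 0.17 without shared probe sets. That of focal adhesion genes moved from 0.01 to -0.34 with the second brightest probe set. Probe-level background correction and detection calls were not used here, and signals near the floor limit Myo1e, Vil1 and Espn.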
